A study of Rattus norvegicus with 6 samples.

Results

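VEGF and angiopoietin signalling was examined through 10 genes, chosen by their symbols: the ligands Vegfa, Vegfb, Vegfc, Angpt1 and Angpt2, and the receptors Flt1, Kdr, Flt4, Tie1 and Tek. Of these, 9 had a row among the 14607 genes of the table, and Flt4 was not analysed here. RNA was sequenced from mid-capillary pericytes (mcPCs) and from smooth muscle cells of larger vessels (VSMCs), both freshly purified from the brain cortex of untreated male Sprague-Dawley rats aged 4 to 5 weeks. The 6 samples came from 3 isolations, each made from pooled rats and each giving 1 VSMC and 1 mcPC sample. VSMCs were sorted by binding of a fluorescent GSA lectin, from the larger vessels held back on a mesh, once cells carrying CD31 or CD11b had been removed. After the first enzyme digestion of the cortex, only these larger vessels had a second, harsher one, with Liberase TM and trypsin. Effects of digestion and sorting therefore cannot be told apart from cell type. The mcPCs were what was left of the capillary fraction once cells carrying CD31, CD11b, GLAST or O4 had been removed, so no marker of their own selected them. The table gave each gene's mean over the 3 samples of a cell type and no value per sample. Hence no spread between isolations and no test over samples stand behind any difference given here, and the intervals cover counting error only.

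VEGF ligands are secreted proteins that bind receptor tyrosine kinases, known mainly from endothelial cells, and drive the growth and permeability of vessels. Vegfa binds Kdr (VEGFR2), the main signalling receptor, and Flt1 (VEGFR1), which binds Vegfa tightly, signals weakly and can act as a decoy. Vegfb and the related Pgf bind Flt1, and Vegfc is best known as the ligand of Flt4 (VEGFR3) in lymphatic vessels. Angpt1, known as a product of mural cells, activates the endothelial receptor Tek (Tie2) and stabilizes vessels, whereas Angpt2 can block or weakly activate Tek depending on the setting. Tie1 is a relative of Tek that binds no angiopoietin on its own and modulates Tek signalling.

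The upstream sequence of 3 receptor genes is shown because their levels lay on opposite sides of the comparison: Flt1 was the VEGF receptor with the higher level in VSMCs, and Kdr and Tie1 were higher in mcPCs. The sequences are the 250 bases before the annotated RefSeq start, 5′ to 3′ on the gene's strand, in the GRCr8 build, which is a later build than the Rnor_6.0 transcripts behind the table. They lie at chr12:12333180-12333429 on the plus strand for Flt1, chr14:32571813-32572062 on the plus strand for Kdr and chr5:137304982-137305231 on the minus strand for Tie1. Capitals mark matches, on either strand, to GGAA (the core bound by ETS factors), to TATAAA (the usual form of the promoter box of that name) and to TGACGTCA (the cAMP response element). No match to a longer motif overlapped another match. The motifs were chosen after the sequences were seen.
Flt1: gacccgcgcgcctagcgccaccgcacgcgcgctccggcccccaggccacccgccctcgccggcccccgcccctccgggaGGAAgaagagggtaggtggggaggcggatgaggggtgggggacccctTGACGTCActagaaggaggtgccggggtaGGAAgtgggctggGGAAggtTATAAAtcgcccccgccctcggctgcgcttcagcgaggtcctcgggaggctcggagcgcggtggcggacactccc
Kdr: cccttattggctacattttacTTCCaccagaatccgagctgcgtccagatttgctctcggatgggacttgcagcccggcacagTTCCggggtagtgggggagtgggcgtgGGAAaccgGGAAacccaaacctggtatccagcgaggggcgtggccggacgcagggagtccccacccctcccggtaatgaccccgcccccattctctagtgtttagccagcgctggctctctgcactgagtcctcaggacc
Tie1: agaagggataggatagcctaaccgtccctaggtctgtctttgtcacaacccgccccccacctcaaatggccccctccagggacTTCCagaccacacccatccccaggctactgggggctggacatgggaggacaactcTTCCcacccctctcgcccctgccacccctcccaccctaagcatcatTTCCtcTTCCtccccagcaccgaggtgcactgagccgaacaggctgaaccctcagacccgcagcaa
Flt1 held 3 GGAA matches, 1 TATAAA beginning 75 bases before the start, and 1 TGACGTCA. Kdr and Tie1 each held 4 GGAA matches and neither of the longer motifs. The entry for Vegfb, which like Flt1 was on the VSMC side but within 2-fold, also held neither. With so few entries, and motifs chosen after the sequences were seen, nothing about motif and side can be read from this. GGAA is common: 93.2% of 33469 rat promoters of the same length held it, with a median of 3 matches, against 12.9% for TATAAA and 1.59% for TGACGTCA. A match describes letters in this window and not a binding site. RefSeq entries were matched for 7 of the 10 genes; Tek, Angpt1 and Angpt2 had none in the table used.

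Depth was high in both cell types, at a mean of 61978061 estimated reads per VSMC sample and 47990230 per mcPC sample. The libraries differed in makeup. A list of 20 erythrocyte genes held 66.0% of the summed TPM (transcript abundance scaled for length and to a fixed total per library) in mcPCs and 0.868% in VSMCs, and Hba-a1, a haemoglobin chain, was at 286193 TPM in mcPCs and 3838 TPM in VSMCs. Such a share lowers the TPM of every other gene. The median gene had a log2 ratio of mcPCs over VSMCs of −1.79 on mean TPM. It was −0.25 on TPM rescaled without the erythrocyte list and 0.01 on the authors' mean normalized counts. Normalized counts were therefore used to compare a gene between cell types, and TPM, which accounts for transcript length, to compare genes within a cell type. Markers of the labelled cell types are given for reference. The study named some of them, Acta2 among them, as specific to 1 cell type in the same data. Their side is therefore no independent check. All 10 smooth muscle genes were at least 2-fold higher in VSMCs (Acta2, smooth muscle actin, 17233 against 20.2 TPM), and all 7 pericyte genes passed the same fold on the mcPC side. Over all genes, 13.9% were at least 2-fold higher in VSMCs and 22.0% in mcPCs. Of 6 genes known from mural cells in general, 2 were at least 2-fold higher in mcPCs, 2 in VSMCs and 2 within 2-fold. The median log2 ratio of these 6 was −0.12. Among them Pdgfrb, the mural receptor for PDGF-B, had 91756 mean normalized counts in VSMCs and 206190 in mcPCs (log2 ratio 1.17).

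The ligands and receptors divided by cell type. In mean normalized counts, mcPCs exceeded VSMCs at least 2-fold for 5 of the 9 genes: the ligands Vegfa and Vegfc and the receptors Kdr, Tie1 and Tek. The same was true of 22.0% of all listed genes. Both angiopoietins, Angpt1 and Angpt2, were at least 2-fold higher in VSMCs, as were 13.9% of all genes. Vegfb and Flt1 were within 2-fold, on the VSMC side. At 4-fold, Vegfc, Kdr, Tie1 and Tek remained on the mcPC side (4 of 9, against 12.4% of all genes), and Angpt2 on the VSMC side (1 of 9, against 5.72%). On mean TPM the split was 4 genes at least 2-fold higher in mcPCs (8.17% of all genes) and 4 in VSMCs (74.8% of all genes). On normalized counts the 9 log2 ratios ran from −2.86 for Angpt2 to 5.05 for Tek.

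**Figure D1:**
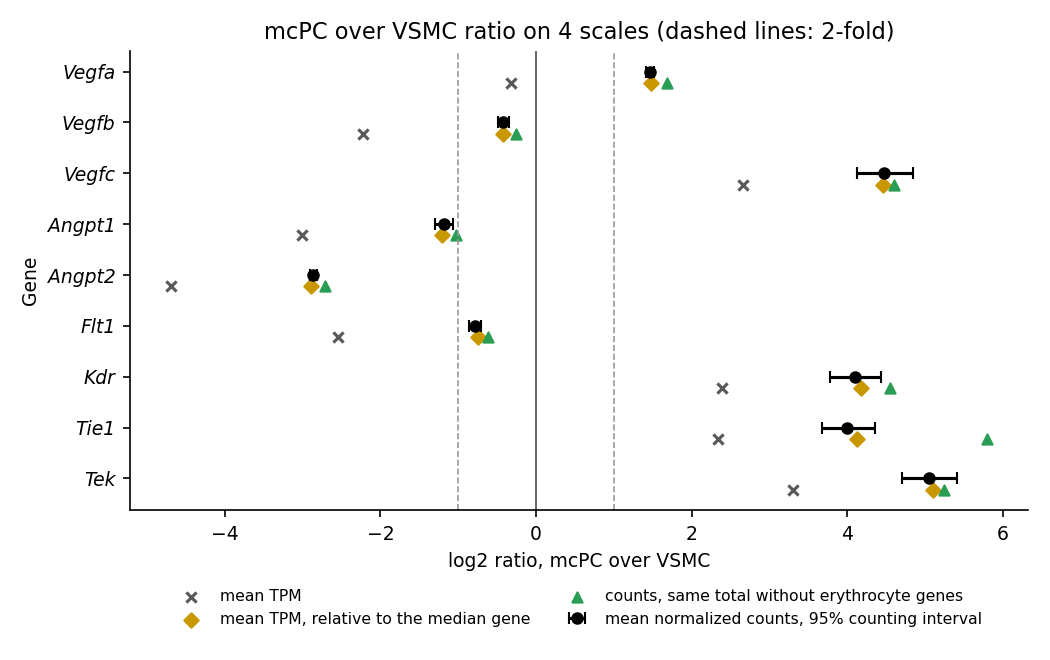
Log2 ratio, mcPCs over VSMCs, for the 9 listed genes on 4 scales: mean normalized counts (black points, with 95% counting intervals as bars), mean TPM (crosses), mean TPM relative to the median gene (diamonds) and counts of the same total without erythrocyte genes (triangles). Vegfc, Kdr, Tie1 and Tek lie beyond 4-fold on the mcPC side and Angpt2 on the VSMC side, and Vegfa is the only gene with marks on both sides of 0, at −0.32 on mean TPM.

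Angpt2 (ENSRNOG00000016696) was by far the most abundant transcript of the 9 in VSMCs, at 239.6 TPM, where 95.6% of listed genes were lower. In mcPCs it was at 9.26 TPM. Its mean normalized counts were 15496 in VSMCs and 2133 in mcPCs, from 65544 and 4668 reads over the 3 samples, which is 7.27-fold higher in VSMCs (log2 ratio −2.86, 95% counting interval −2.90 to −2.82). Angpt1 (ENSRNOG00000005854), the activating ligand of Tek, was on the same side with a smaller ratio. Its level was 16.5 TPM in VSMCs against 2.06 TPM in mcPCs, and its mean normalized counts were 805 and 355, a 2.26-fold difference (log2 ratio −1.18, interval −1.29 to −1.07). Angpt2 thus exceeded Angpt1 in both cell types: the ratio of their TPM was 14.5 (interval 14.03 to 15.0) in VSMCs and 4.50 (4.17 to 4.86) in mcPCs. The angiopoietins made up 83.2% of the summed TPM of the 9 genes in VSMCs (307.9 TPM) and 31.8% in mcPCs (35.6 TPM).

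The 3 VEGF ligands differed from one another in direction and size. Vegfa (ENSRNOG00000019598) was at 11.9 TPM in VSMCs against 9.56 TPM in mcPCs, and at 1123 and 3103 mean normalized counts. It was 2.76-fold higher in mcPCs by normalized counts (log2 ratio 1.47, interval 1.41 to 1.52), but its log2 ratio on mean TPM was −0.32, the only one of the 9 whose direction depended on the scale. With the erythrocyte list taken out and TPM rescaled, the log2 ratio of Vegfa was 1.22. Vegfb (ENSRNOG00000021156), a ligand of Flt1 alone among the VEGF receptors, was at 30.5 TPM in VSMCs against 6.53 TPM in mcPCs. Its mean normalized counts of 1392 and 1040 gave a ratio within 2-fold (1.34-fold higher in VSMCs, log2 ratio −0.42, interval −0.49 to −0.35). The order of the ligands changed with the cell type: Vegfb was 2.55 times Vegfa by TPM in VSMCs and 0.683 times Vegfa in mcPCs.

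Vegfc (ENSRNOG00000011416) was scarce in VSMCs, at 0.299 TPM from 72 reads over the 3 samples, and was at 1.90 TPM from 820 reads in mcPCs. Its mean normalized counts were 16.7 and 372, so that it was 22.2-fold higher in mcPCs (log2 ratio 4.47, interval 4.13 to 4.84). Vegfa outnumbered Vegfc by TPM in both cell types, 40.0-fold in VSMCs and 5.04-fold in mcPCs. The 3 VEGF ligands together made up 13.9% of the summed TPM of the 9 genes in VSMCs and 50.5% in mcPCs.

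**Figure D2:**
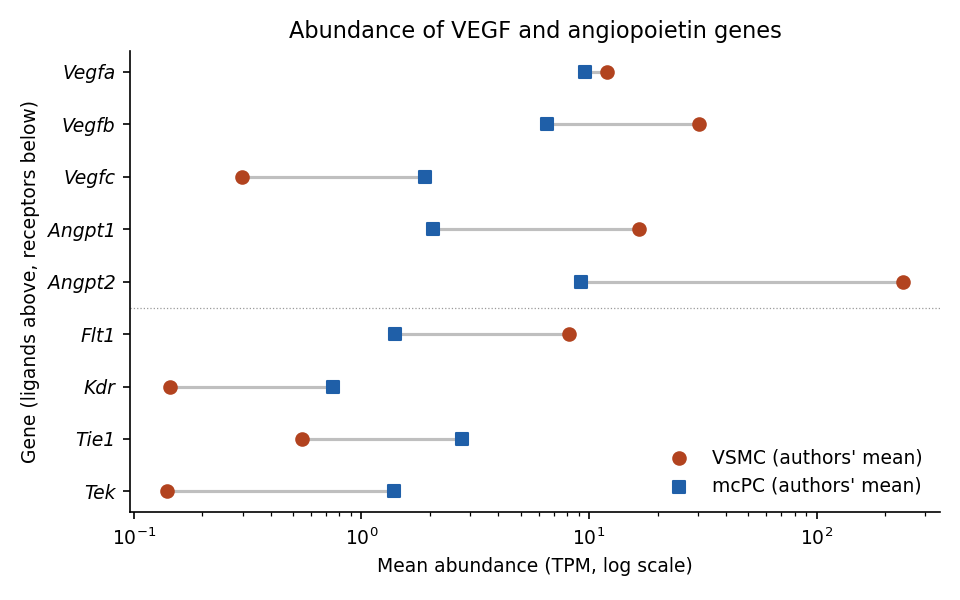
Mean TPM (log axis) of the 9 listed genes in VSMCs (circles) and mcPCs (squares), each the authors' mean of 3 samples, joined by a line. Angpt2 stands at 239.6 TPM in VSMCs, and Vegfc, Kdr, Tie1 and Tek, all below 0.8 TPM in VSMCs, are the 4 genes whose square lies to the right of the circle.

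The 2 listed VEGF receptors lay on opposite sides. Flt1 (ENSRNOG00000000940) was at 8.20 TPM in VSMCs from 6669 reads, and at 1.41 TPM in mcPCs from 2042 reads. Its mean normalized counts were 1602 and 931, 1.72-fold higher in VSMCs (log2 ratio −0.78, interval −0.86 to −0.71). Kdr (ENSRNOG00000046829) had 0.144 TPM in VSMCs from 84 reads and 0.751 TPM in mcPCs from 921 reads. By mean normalized counts (21.8 and 373) it was 17.1-fold higher in mcPCs (log2 ratio 4.10, interval 3.77 to 4.44). In VSMCs Flt1 was therefore 57.1 times Kdr by TPM (interval 46.0 to 71.6), and in mcPCs 1.87 times (1.73 to 2.03). The decoy-type receptor was the more abundant in both, and the ratio of Flt1 to Kdr was 30.5-fold larger in VSMCs.

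Both Tie receptors were under 0.8 TPM in VSMCs and higher in mcPCs. Tek (ENSRNOG00000008587) had 0.140 TPM in VSMCs from 73 reads and 1.39 TPM in mcPCs from 1294 reads. Its mean normalized counts of 17.5 and 581 made the largest ratio of the 9 genes, 33.2-fold higher in mcPCs (log2 ratio 5.05, interval 4.71 to 5.41). Tie1 (ENSRNOG00000020173) had 0.546 TPM in VSMCs from 77.1 estimated reads and 2.76 TPM in mcPCs from 2009. It was 16.1-fold higher in mcPCs by mean normalized counts (40.1 and 644, log2 ratio 4.01, interval 3.68 to 4.35). The effective transcript length behind Tie1 differed between the cell types, at 1784 bases in VSMCs and 3443 in mcPCs. Only 6 of the 14607 genes had a length ratio as large as this, and 76.5% had the same length in both cell types within 0.1%. The normalized counts include a length term, and on counts without it the log2 ratio of Tie1 was 5.07 at the same total and 5.80 at the same total without the erythrocyte list. On TPM relative to the median gene, which is also per length, it was 4.13.

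Within a cell type, the genes could be ordered by TPM. In VSMCs the order from high to low was Angpt2, Vegfb, Angpt1, Vegfa, Flt1, Tie1, Vegfc, Kdr and Tek, and the last pair could not be separated by counting error (Kdr over Tek 1.03, interval 0.742 to 1.43). In mcPCs the order was Vegfa, Angpt2, Vegfb, Tie1, Angpt1, Vegfc, Flt1, Tek and Kdr. There Vegfa and Angpt2 (ratio 1.03, interval 0.995 to 1.07), Angpt1 and Vegfc (1.09, 0.983 to 1.20), and Flt1 and Tek (1.02, 0.946 to 1.09) could not be separated by counting error. Whether any of these neighbours differ beyond the spread between isolations cannot be said from means. By rank among all listed genes, Angpt2 moved from above 95.6% of genes in VSMCs to above 73.9% in mcPCs, while Vegfa moved from above 48.7% to above 74.8%. Vegfc was above 9.39% of genes in VSMCs and 35.6% in mcPCs, and Kdr above 5.16% and 20.9%. A level of 0.8 TPM in VSMCs, which the study used as its floor for expression, was reached by 5 of the 9 genes and by 12218 of all 14607. Vegfc, Kdr, Tie1 and Tek did not reach it. In mcPCs, 8 of the 9 were at or above the same level, Kdr being the exception. Most genes were: a listed gene at 0.799 TPM in mcPCs was above only 21.7% of all genes. The erythrocyte share lowers other TPM in mcPCs, so the level is not equivalent in the 2 cell types.

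**Figure D3:**
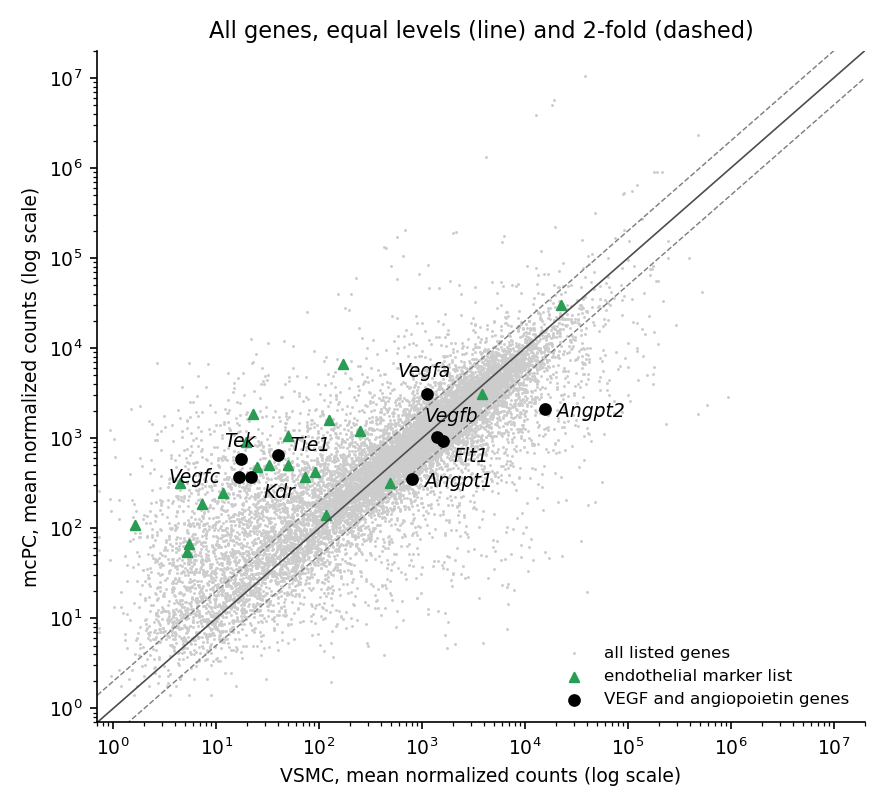
Mean normalized counts in mcPCs (vertical, log axis) against VSMCs (horizontal, log axis) for all 14607 genes (grey), the endothelial list (triangles) and the 9 ligands and receptors (black, named), with a solid line for equal levels and dashed lines for 2-fold. Vegfc, Kdr, Tie1 and Tek lie among the triangles at 16.7 to 40.1 counts in VSMCs, and Angpt2 lies apart under the lower dashed line at 15496 and 2133.

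Because Kdr, Tie1 and Tek are best known from endothelial cells, endothelial markers are given beside them. The study itself used Tie1 and Tek among its endothelial markers when it set its floor, and their place under the floor follows from how it was set. It described a slight contamination of its mcPCs by endothelial cells and erythrocytes. The floor was set on transcripts known from neurons, glia and endothelial cells. In a separate step the study discarded the transcripts most enriched in mcPCs, which came mainly from erythrocyte genes. Genes under the floor, and so Vegfc, Kdr, Tie1 and Tek, were left out of its final gene set. Of 24 endothelial genes, 21 were listed. At least 2-fold higher in mcPCs were 17 of them (22.0% of all genes were), and none was 2-fold higher in VSMCs (13.9%). The median log2 ratio of the list was 3.66 (range −0.62 to 6.34). Cldn5, the tight junction claudin that defines brain endothelium, was at 0.643 TPM in VSMCs and 15.4 TPM in mcPCs (log2 ratio 6.34). Cdh5, VE-cadherin, had a log2 ratio of 3.95, and Pecam1, which encodes the CD31 antigen used for depletion, had no row. The summed mean normalized counts of the list were 27951 in VSMCs and 50322 in mcPCs (log2 ratio 0.85), with Esam and Ocln holding most of them. Without those 2 genes, a choice made after seeing the values, the sums were 1552 and 16951, a 10.9-fold difference (log2 ratio 3.45). The ratios of Kdr, Tie1, Tek and Vegfc lay within the range of the endothelial list, but this was not particular to that list. Median log2 ratios were 4.28 for neuron, 5.25 for microglia and macrophage, 6.17 for pericyte and 7.10 for erythrocyte genes. They were 2.86 for astrocyte, 1.73 for oligodendrocyte, 1.61 for fibroblast, −0.12 for mural and −7.65 for smooth muscle genes. The part of any of these cell types in the 4 ratios was not tested.

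Relative to Cldn5, the receptors were lower in mcPCs than in VSMCs. Cldn5 had the largest log2 ratio of the 21 listed endothelial genes, at 6.34. A fall relative to it therefore follows from that choice of reference, and departure from endothelial genes as a group was not tested. By log2 ratio, Cdh5 (3.95) was nearer than Cldn5 to Kdr (4.10), Tie1 (4.01) and Tek (5.05). Kdr was 0.223 times Cldn5 by TPM in VSMCs and 0.0486 times in mcPCs, Tek 0.217 and 0.0897 times, and Tie1 0.849 and 0.179 times. Flt1 stood apart from these receptors, at 12.7 times Cldn5 in VSMCs and 0.0911 times in mcPCs. Vegfc was 0.464 and 0.123 times Cldn5. In bulk samples, fewer cells of a type and less RNA per cell cannot be told apart.

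Most listed markers of other cells were also higher in mcPCs. The share of all genes at least 2-fold higher there was 22.0%. At least 2-fold higher in mcPCs were 19 of 20 listed erythrocyte genes, 5 of 5 microglia and macrophage genes, 5 of 5 neuron genes, 6 of 7 oligodendrocyte genes, 4 of 6 astrocyte genes and 4 of 5 fibroblast genes. Microglia, astrocytes and oligodendrocytes are cell types that the CD11b, GLAST and O4 antibodies were meant to remove from the mcPC fraction. The log2 ratio of summed mean normalized counts was 5.85 for the microglia and macrophage list (30.3 in VSMCs and 1746 in mcPCs), 4.12 for the neuron list (229 and 3995), 1.74 for the oligodendrocyte list (1303 and 4356), 1.93 for the astrocyte list (1642 and 6243) and 0.15 for the fibroblast list (19854 and 21975). Within mcPCs the summed TPM of these lists was 9.45, 22.9, 19.4, 21.2 and 58.2 in the same order. Beside them, the 9 ligands and receptors together summed to 35.6 TPM, and Vegfa was at 9.56 TPM. The erythrocyte share lowers all of these TPM values. Vegfa is made by several of these cell types as well as by mural cells, and their part in its mcPC level was not tested.

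The other genes of the pathway were taken from 5 lists. Of 78 genes named, 69 were listed. Of these, 18 were at least 2-fold higher in mcPCs (22.0% of all genes were) and 17 in VSMCs (13.9% of all genes). The remaining 34 were within 2-fold (64.1% of all genes). These shares of all genes also stand beside the counts of each list below. The 69 genes had a median log2 ratio of −0.05, beside 1.47 for the 9 ligands and receptors and 0.01 for all genes.

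Among the other ligands, 4 of 6 were at least 2-fold higher in VSMCs (13.9% of all genes were) and 1 in mcPCs (22.0%). The median log2 ratio was −1.55. Pgf, the placental growth factor that binds Flt1, was at 193 TPM in VSMCs and 6.54 TPM in mcPCs (log2 ratio −3.07). It was 16.2 times Vegfa by TPM in VSMCs and 0.684 times Vegfa in mcPCs, and exceeded its receptor Flt1 23.5-fold and 4.65-fold. Angptl4 and Angptl2, angiopoietin-like secreted proteins that do not bind Tek, had log2 ratios of −3.22 and −1.59, and Figf, the older symbol of Vegfd, −1.51. Angptl6 had a log2 ratio of 2.73 on only 6 reads in VSMCs and 21.0 in mcPCs.

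Of 14 listed coreceptors and regulators, 6 were at least 2-fold higher in mcPCs (22.0% of all genes were) and 3 in VSMCs (13.9%). Their median log2 ratio was 0.77. The neuropilins, which help VEGF bind its receptors, lay on opposite sides as Flt1 and Kdr did. Nrp1 was at 53.8 TPM in VSMCs and 6.92 TPM in mcPCs (log2 ratio −1.15), and Nrp2 at 0.192 and 1.03 TPM (4.22). Nrp1 over Nrp2 was 279.8 by TPM in VSMCs and 6.70 in mcPCs. Ptprb (VE-PTP), the phosphatase that dampens Tek, was at 0.0916 and 0.535 TPM (log2 ratio 4.31), and Vash1, a vessel growth inhibitor, had a log2 ratio of 2.93. The secreted inhibitors of VEGF signalling Adamts1 and Thbs1 were higher in VSMCs: Adamts1 was at 1942 and 3.33 TPM (log2 ratio −7.37), and Thbs1 at 116 and 2.79 TPM (−3.59). Itgb1, the integrin beta chain, had a log2 ratio of −0.79 and Lrp1, an endocytic receptor, 0.99.

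Of 24 listed signal transducers, 18 were within 2-fold, as were 64.1% of all genes; 3 were higher in mcPCs and 3 in VSMCs, and the median log2 ratio was 0.08. Plcg1, which Kdr activates, had a log2 ratio of 0.58 and the PI3-kinase subunit Pik3r2 0.72. The exceptions past 4-fold were Dok2, an adaptor that binds Tek (0.933 and 10.3 TPM, log2 ratio 5.22), Nos3, endothelial nitric oxide synthase (2.32), and Hspb1, a small heat shock protein (−4.51).

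In the list on hypoxia, the best known inducer of Vegfa, 8 of 13 genes were within 2-fold (64.1% of all genes were), 2 were higher in mcPCs and 3 in VSMCs, with a median log2 ratio of −0.50. Epas1 (HIF-2 alpha), a hypoxia-inducible transcription factor, was at 1277 TPM in VSMCs and 140 TPM in mcPCs (log2 ratio −1.36). Its side was opposite to that of Vegfa by normalized counts, and any link between Epas1 and Vegfa was not tested. Among hypoxia-responsive genes, Ndrg1 had a log2 ratio of −2.11 and Ldha, lactate dehydrogenase A, −0.44, whereas Adm, adrenomedullin, had 3.04 and Egln3, an oxygen-sensing prolyl hydroxylase, 2.52.

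Of 12 listed genes known to respond to VEGF in endothelial cells, 6 were at least 2-fold higher in mcPCs and 4 in VSMCs. The shares of all genes were 22.0% and 13.9%. The 12 genes had a median log2 ratio of 0.76. On the VSMC side were the transcription factors Nr4a1 (log2 ratio −3.16), Klf2 (−3.34) and Mef2c (−1.96, just under 4-fold) and the calcineurin regulator Rcan1 (−2.18). Past 4-fold on the mcPC side were Flrt2 (3.70), the phosphatase Dusp5 (3.01) and the Notch ligand Dll4 (2.50), and the transcription factor Ets1 had a log2 ratio of 1.12.

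**Figure D4:**
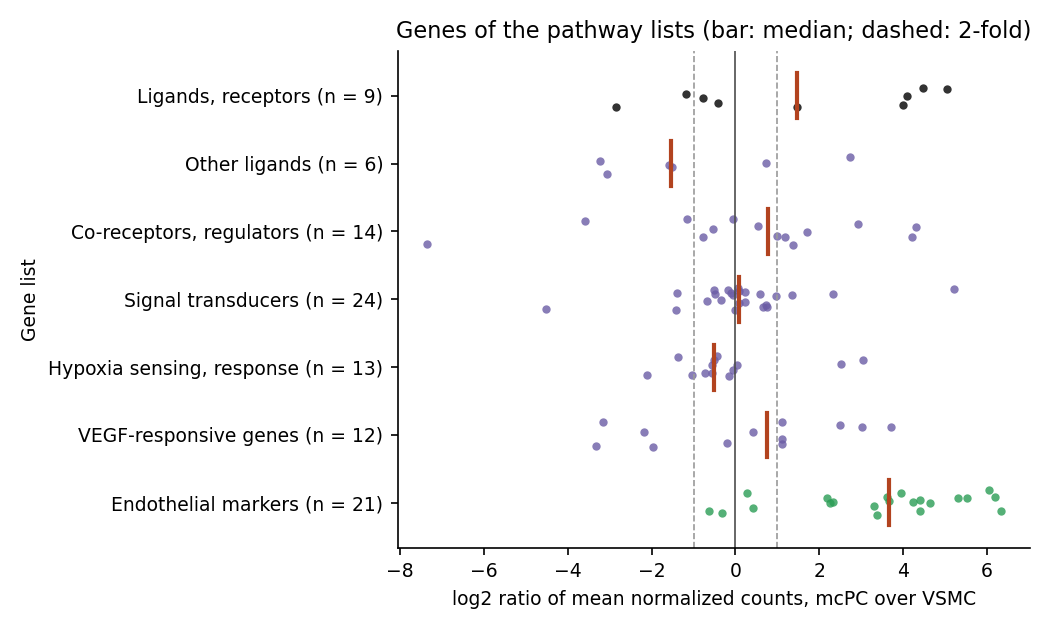
Log2 ratio of mean normalized counts (mcPCs over VSMCs) for each listed gene (points) of the ligands and receptors, the 5 pathway lists and the endothelial markers, with a bar at the median of each list and dashed lines at 2-fold. The signal transducers lie mostly within 2-fold around a median of 0.08, whereas the endothelial markers lie mostly on the mcPC side around 3.66.

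For each ligand and receptor, the gene with the nearest log2 ratio was sought among 89 pathway and endothelial genes. With only 2 cell-type means, likeness here means a like ratio and no more. Tie1 was nearest to Cdh5 (difference 0.06), Vegfc to the endothelial gene Egfl7 (0.07), Kdr to Nrp2 (0.12) and Tek to Dok2 (0.17). On the VSMC side, Angpt2 was nearest to Pgf (0.21), Angpt1 to Nrp1 (0.03), Vegfb to Ldha (0.02) and Flt1 to Itgb1 (0.003). Vegfa was nearest to Itga5 (0.10), an integrin alpha chain.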

How the data were processed

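PolyA RNA from 3 VSMC and 3 mcPC samples was sequenced on 4 runs per library. The authors quantified reads against Rnor 6.0 transcripts with Salmon 0.8.0, per the labels and their methods, summarized them per gene, and left out a gene unless every sample had at least 1 read of it. The deposited table holds the authors' means per cell type: TPM, estimated counts per run (expected counts, which need not be whole), and a normalized count signal with its overall mean, which the authors made with DESeq2 and which includes a transcript length term, and effective lengths. Its remaining columns hold the authors' own fold changes, standard errors and p-values for the comparison and were not used.

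Each gene's log2 ratio of mean normalized counts (mcPCs over VSMCs) was computed, and 2-fold was the call. Reads over 3 samples were taken as the mean count times 12 runs: this gave whole numbers within 0.01 for 69.8% (VSMCs) and 71.5% (mcPCs) of genes, against 18.1% and 18.5% for 3. Exact binomial counting intervals at 95% cover counting error only. The means carry no spread between isolations, so no test over samples was run. The members and all lists were chosen with earlier results of these data known.

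Named genes were all members, the 3 most abundant and those past 4-fold in each pathway list, Pgf, Nrp1, Nrp2 and Ptprb, the marker genes Cldn5, Pecam1, Cdh5, Pdgfrb, Acta2 and Hba-a1, and for each member the gene with the nearest ratio; Esam, Ocln and Figf were named after their values were seen. Of the 2 Grb2 entries the higher was used. Alternatives were other scalings, a pseudocount of 1, filters at 0.8 TPM in VSMCs and at 30 reads per cell type, and call folds of 1.5 and 4. The script was tested on simulated data. Promoter sequences are from RefSeq (GRCr8). Values were computed in Python 3.11.15 with scipy 1.17.1, pandas 2.3.3 and numpy 2.4.6, and drawn with matplotlib 3.10.9.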

Additional observations from a re-analysis of the deposited data

How the results depend on the processing

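The counts of calls moved by over 1.5 times in 3 cases. On mean TPM, where 86.3% of all genes were lower in mcPCs, 4 rather than 2 ligands and receptors were at least 2-fold higher in VSMCs (Vegfb and Flt1 were added), and Vegfa turned to a log2 ratio of −0.32. With the filter at 0.8 TPM in VSMCs, 1 rather than 5 was higher in mcPCs, since Vegfc, Kdr, Tie1 and Tek fall below it. At a 4-fold call, 1 rather than 2 was higher in VSMCs. The shift of each of 63 log2 ratios (9 genes, 7 alternatives) was set against the mean distance from the main ratio to its interval ends. By that measure, 34 moved less, 28 moved further with the same sign and 1 (Vegfa) changed sign. The summed log2 ratio of the endothelial list, 0.85, was −1.06 on mean TPM, 0.73 on TPM minus its median, 0.27 on counts of the same total, 1.0 on such counts and 0.49 on TPM without the erythrocyte list, 0.83 on normalized counts minus their median, and 3.45 without Esam and Ocln, an alternative chosen after seeing the data. No paired analysis was possible because the table holds means per cell type and no value per isolation. For the same reason no replicate could be left out in turn, so whether 1 isolation decides any ratio was not tested. Depth limits Vegfc, Kdr, Tie1 and Tek most, at 72 to 84 reads over the 3 VSMC samples.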
